A study of Mus musculus with 12 samples.

Results

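Regulatory T (Treg) cells that express Il10 were described in single-cell RNA data from mouse tumours. Members were chosen by measured values. A cell belonged to this class where raw UMI counts (unique molecular identifiers, 1 per captured RNA molecule) were above 0 for Foxp3, Cd4 and Il10 and 0 for Cd8a and Il1rl1. Il1rl1 encodes ST2, the IL-33 receptor. A cell needed 500 or more genes, and no more than 10% of its UMIs could be mitochondrial. It held 144 of 2740 cells (5.26%), which were 27.9% of the 517 Treg cells (Foxp3 and Cd4 present, Cd8a absent). The other Treg cells were 222 with neither Il10 nor Il1rl1, called Il10-negative below, and 151 with Il1rl1, called ST2-positive below. Since Il10 chose the class, its level is given as a description, and the 5 genes of the gate entered no test.

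IL-10 is an anti-inflammatory cytokine that acts through the IL-10 receptor and STAT3 and restrains antigen-presenting cells and inflammation at barrier surfaces. Foxp3 is the lineage factor of Treg cells. Maf (c-MAF) is a transcription factor that activates Il10 in several kinds of T cell. Itgb8 is the beta chain of the integrin alpha-v beta-8, with which Treg cells release active TGF-beta from its latent form.

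The mice were heterozygous for Kaede (Kaedehet in the labels), a green fluorescent protein that violet light turns red, and carried MC38 colon carcinomas. On day 14 the lymph node draining the tumour was photoconverted, which marks cells present in it red, while unconverted cells stay green. Radiation (RT) was a single dose of 12 Gy to the tumour, and NT tumours had no dose. Harvest followed after 24 h (D1, day 15) or 72 h (D3, day 17), and some mice of the D3 groups received 10 µg of FTY720, which holds lymphocytes in lymphoid tissue, by intraperitoneal injection on day 15. The 6 conditions were NT-D1, RT-D1, NT-D3, RT-D3, FTY720-D3 and RTFTY720-D3, with 2 pools of 4 tumours each. CD4 and CD8 T cells were enriched magnetically, stained with hashtag antibodies by condition and colour, and sorted as live CD90.2+ red or green cells. All mice carried Kaede and had the lymph node converted, also the untreated ones. Ages were not given in the labels used here.

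The cells came from 4 wells. Wells for replicates 1 and 2 of NT-D1, RT-D1 and NT-D3 gave 666 and 1651 cells, and those for replicates 1 and 2 of RT-D3, FTY720-D3 and RTFTY720-D3 gave 143 and 280. Median depths were 17856.5 to 20915 UMIs a cell, and 0 barcodes were shared between wells. The class held 29 and 90 cells in the first pair of wells and 8 and 17 in the second.

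The hashtags did not follow the replicate numbers, and this bears on each comparison below. Each condition used 2 hashtag sequences, and the names red and green were exchanged between replicate 1 and replicate 2 for 12 of 12 tags. Those of NT-D1 are printed to show the exchange:
NT-D1 tag A, red in the replicate 1 well and green in the replicate 2 well: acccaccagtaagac
NT-D1 tag B, green in the replicate 1 well and red in the replicate 2 well: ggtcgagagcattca
Cells descended from 1 T cell share their T cell receptor (TCR) beta sequence, although unrelated cells can also share one. Between the wells of the same conditions, 71 TCR beta sequences and 411 of 149299 cell pairs (0.275%) were shared under the same tag sequence. Under the other tag sequence of the condition, 7 sequences and 18 of 157031 pairs (0.0115%) were shared. The gap was small in RTFTY720-D3, with 7 of 1261 pairs (0.555%) under the same tag and 5 of 1240 (0.403%) under the other. Within a well, cells under different tags of a condition shared 15 of 211343 pairs (0.0071%), and cells of other conditions shared 47 of 917589 (0.00512%). A tumour pool was therefore taken as the cells of 1 condition with 1 tag sequence, pool A or B, which gave 12 pools. Colours are those named in the deposited matrices. The tag numbers of the labels give replicate 2 the opposite colours, and the share of members and the number of genes called between red and green members are also given that way. Other values by colour rest on the names in the matrices. Within a pool, red and green cells lay in different wells, so colour and well cannot be told apart there. p-values measure the spread between pools, except where pool and colour together formed the block. Only 2 pools stood for each condition.

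Il10 counts were very uneven among the 144 cells. They ranged from 1 to 137 UMIs a cell with a median of 6.5 and quartiles of 2 and 17. Exactly 1 UMI was found in 29 cells (20.1%) and 2 UMIs in 17 (11.8%), which are the cells just inside the gate. At least 10 UMIs were found in 56 cells (38.9%, exact binomial 95% interval 30.9 to 47.4%, counting error only). The 10 highest cells held 673 of the 1881 Il10 UMIs of the class (35.8%). The class as a whole held 63.1% of the 2979 Il10 UMIs of all cells, Foxp3-negative CD4 cells 16.8%, ST2-positive Treg cells 12.4% and cells with Cd8a UMIs 1.78%.

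Free RNA in droplets can give a cell a UMI of a gene it does not express. Among CD8 cells (Cd8a present, Cd4 and Foxp3 absent), 23 of 1542 had an Il10 UMI (1.49%, median depth 22558 UMIs). The share was 24 of 494 (4.86%) in Foxp3-negative CD4 cells at a median of 15032.5 UMIs, 23 of 151 (15.2%) in ST2-positive Treg cells at 20856 and 144 of 366 (39.3%) in ST2-negative Treg cells at 19800. The last share stood far above that of the CD8 cells at similar depth. At the other edges of the gate, 6 members had 1 Foxp3 UMI, 9 had 1 Cd4 UMI, and 29 ST2-positive cells were kept out by 1 Il1rl1 UMI, of which 6 had Il10. When each cell was thinned to 10000 UMIs, 111 of 427 Treg cells (26.0%) met the gate, and at 5000 UMIs 81 of 341 (23.8%).

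**Figure D1:**
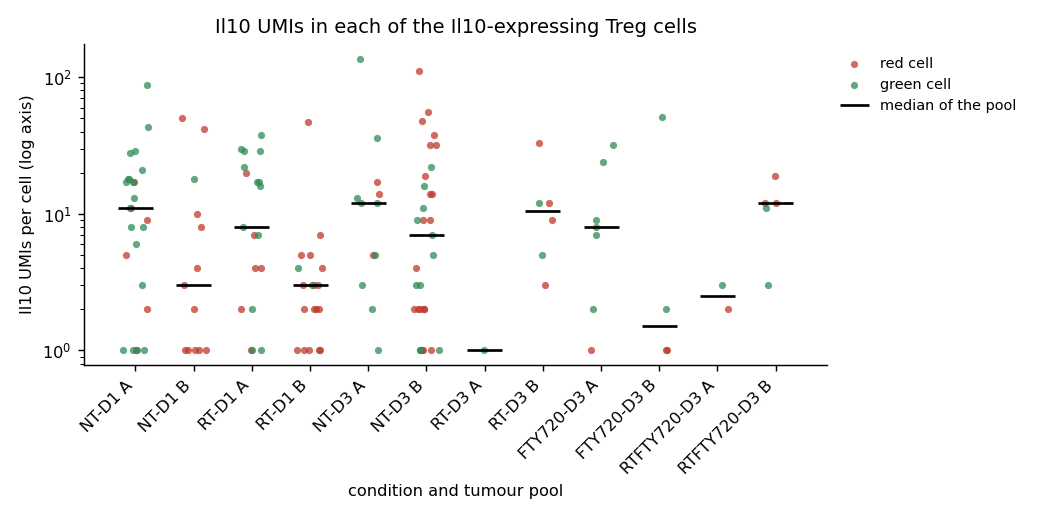
Il10 UMIs of each of the 144 cells (y axis, log scale) by tumour pool (x axis), coloured by the Kaede colour named in the matrices, with a bar at the pool's median. Cells with 1 UMI and cells with more than 10 lie together in the pools of NT-D1, RT-D1, NT-D3 and FTY720-D3, but in no pool of RT-D3 or RTFTY720-D3. The medians run from 1 to 12 UMIs.

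Il10 levels differed between the pools of a single condition about as much as between conditions. The median was 11 UMIs in NT-D1 pool A and 3 in pool B. It was 8 and 3 in RT-D1, and 12 and 7 in NT-D3. The smaller day 3 pools had medians of 1 (RT-D3 A, 1 cell), 10.5 (RT-D3 B, 6 cells), 8 (FTY720-D3 A, 7 cells), 1.5 (FTY720-D3 B, 4 cells), 2.5 (RTFTY720-D3 A, 2 cells) and 12 (RTFTY720-D3 B, 5 cells). As CPM, counts scaled by library size and summed over the members of a pool, Il10 stood at 635 and 396 in NT-D1 A and B, 646 and 221 in RT-D1 A and B, and 922 and 623 in NT-D3 A and B. It stood at 483 in RT-D3 B, 482 in FTY720-D3 A and 911 in RTFTY720-D3 B. In each of NT-D1, RT-D1 and NT-D3, the 3 conditions with 2 pools of 5 or more members, pool A was the higher one. The pools also differed in colour. Red and green members numbered 6 and 19 in NT-D1 A but 12 and 1 in NT-D1 B. They numbered 6 and 13 in RT-D1 A but 17 and 2 in RT-D1 B, and 3 and 9 in NT-D3 A but 20 and 11 in NT-D3 B. The part of colour in these gaps between pools was not tested.

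The label was checked against its other markers. Maf was detected in 144 of 144 members (100%), against 95.05% of Il10-negative and 96.0% of ST2-positive Treg cells. Itgb8 was detected in 69.4% of members, 45.05% of Il10-negative and 34.4% of ST2-positive cells. In cells thinned to 10000 UMIs these Itgb8 shares were 60.1%, 34.6% and 29.4%. The Treg genes Il2ra (98.6%), Ikzf2 (100%), Tnfrsf18 (100%) and Ctla4 (95.8%) were found in nearly every member, so the label of a Treg cell held. They were also found in nearly every Il10-negative and ST2-positive cell. The shares there were 95.9% and 99.3% for Il2ra, 96.8% and 100% for Ikzf2, and 99.5% and 99.3% for Tnfrsf18. For Ctla4 they were 99.5% and 99.3%, above that of members. Summed per pool, Maf ran from 674 to 1695 CPM, Foxp3 from 509 to 879 and Itgb8 from 136 to 348.

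Markers of other cells were found in the members, and the summed level was highest for those of CD8 T cells. The median depth of a member was 19840.5 UMIs, against 19800 in Il10-negative and 20856 in ST2-positive cells. Of 17 myeloid markers, 4 were at 0 in the 7 pools compared below (Mrc1, S100a8, S100a9 and Adgre1), and their sum was 191 to 461 CPM in members (median 281) against 217 to 808 (median 421) in Il10-negative cells. Lyz2 was found in 7.64% of members, 2.70% of Il10-negative and 1.99% of ST2-positive cells, and C1qa in 6.25%, 1.35% and 0.662%. Itgam ran the other way, with 7.64%, 12.6% and 22.5%, and Cd68 was found in 5.56%, 4.95% and 0.662%. Of 7 B cell markers, the defining Cd79a, Ms4a1 and Pax5 were at 0 in members. The 7 together still summed to 88.2 to 329 CPM in members (median 205), against 105 to 324 (median 251) in Il10-negative cells. Of 6 NK and ILC markers summed, Ncr1, Klrb1c, Klre1, Il13 and Il5 were at 0. Markers of tumour and stroma (10 genes) summed to 56.7 to 166 CPM in members (median 116) and 80.8 to 174 (median 157) in Il10-negative cells. CD8 T cell markers other than Cd8a (Cd8b1, Gzmk, Nkg7, Klrd1, Klrc1 and Ccl5) summed to 309 to 1683 CPM in members (median 808), 154 to 748 (median 583) in Il10-negative and 146 to 732 (median 374) in ST2-positive cells. The defining marker Cd8b1 was found in 14.6% of members, 13.1% of Il10-negative and 20.5% of ST2-positive cells. The part of these RNAs in the differences below was not tested.

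Among the 144 cells themselves, cells with more Il10 also had more Lag3. The rank correlation of Il10 CPM across these cells, which share wells and pools, was 0.42 with Lag3, a checkpoint receptor whose ligands include MHC class II. It was 0.31 with Cxcr6, the receptor for the chemokine CXCL16, 0.24 with Tigit, 0.24 with Itgb8 and 0.23 with Maf. It was -0.27 with S1pr1, the receptor through which lymphocytes leave tissues, -0.27 with Cxcr3, -0.24 with Ccr4 and -0.23 with Nrp1. It was -0.09 with Foxp3 and -0.20 with the total UMIs of the cell. All are weak to moderate and are given as descriptions, without a test.

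The first comparison asked what share of the tumour's Treg cells had Il10, by Kaede colour. The share was lower in red than in green cells in 7 of 7 pools with at least 5 Treg cells of each colour. It was 22.6 ± 6.47% in red and 36.0 ± 10.9% in green cells (mean ± SD, n = 7 pools), a difference of -13.5 percentage points (exact two-sided sign-flip permutation p = 0.0156, the smallest that 7 pools allow). In NT-D1 the red and green shares were 13.3% and 45.2% in pool A and 19.0% and 20% in pool B. In RT-D1 they were 28.6% and 39.4% in pool A and 17.7% and 40.0% in pool B. In NT-D3 they were 21.4% and 24.3% in pool A and 31.3% and 50% in pool B, and in RT-D3 pool B 26.7% and 33.3%. The gap ran from under 1 point in NT-D1 B to -31.9 points in NT-D1 A, and green meant only 5 cells in NT-D1 B, 5 in RT-D1 B and 6 in RT-D3 B. Under the colours that the labels' tag numbers give, with pools by replicate number, the difference was 2.41 points the other way (exact permutation p = 0.82, n = 8), so the direction rests on the names in the matrices. With those names and pools by replicate number it was -22.4 points (exact permutation p = 0.0234, n = 8). In cells thinned to 10000 UMIs it was -17.8 points (exact permutation p = 0.125, n = 5) and at 5000 UMIs -6.52 (exact permutation p = 0.5, n = 4), with 1 pool of the opposite sign each time.

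**Figure D2:**
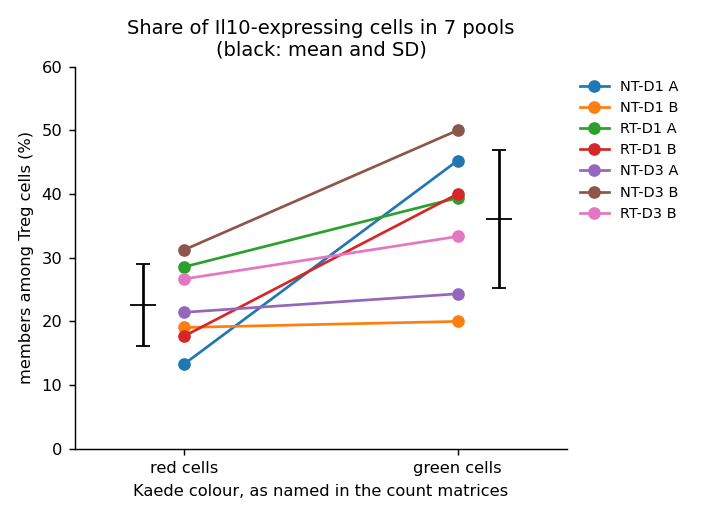
Members as a percent of Treg cells (y axis) in red and green cells (x axis, colours as named in the matrices), with 1 line for each of the 7 tumour pools and the mean and SD in black. Every line rises from red to green, from a mean of 22.6% to 36.0%.

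Radiation gave no shift in that share beyond the spread between pools. It was 30.0 ± 12.7% in 6 irradiated and 32.96 ± 16.1% in 6 unirradiated pools, a difference of -2.92 points (exact permutation p = 0.657 within conditions of the same day and FTY720 state, smallest possible 0.00926). Its sign turned to 5.42 points in cells thinned to 10000 UMIs and to 3.24 without FTY720-D3 pool A. With FTY720 at day 3 the share was 43.4 ± 16.7% against 25.6 ± 9.13% without (4 pools against 4, a difference of 17.8 points, exact permutation p = 0.167, smallest possible 0.0556). These day 3 pools were small. FTY720-D3 pool A had 7 members of 11 Treg cells (63.6%) and pool B 4 of 15 (26.7%), RTFTY720-D3 pool A 2 of 6 (33.3%) and pool B 5 of 10 (50%), and NT-D3, with 23.5% and 36.0%, lay in other wells.

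The second comparison set the members against Il10-negative Treg cells of the same pools, to ask what goes with Il10 at equal Foxp3 and ST2 status. Members had more Lag3, Tigit, Ccl4, Cxcr6 and Itgb8 RNA and less Cd226, Lta and Cd69 RNA. Raw counts were summed per pool and class over 7 pools with at least 5 cells of each (332 cells, 125603 to 1296450 UMIs a sum) and tested with edgeR's quasi-likelihood test with the pool as a block. Of 7872 genes, 37 passed an adjusted p of 0.05 (0.47%), 20 of them higher (0.254%) and 17 lower (0.216%) in members.

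Lag3 (ENSMUSG00000030124) and Tigit had the smallest adjusted p of all genes. In members and Il10-negative cells the CPM of Lag3 were 369 and 23.4 in NT-D1 A, 99.6 and 33.1 in NT-D1 B, 491 and 24.5 in RT-D1 A, 74.2 and 17.7 in RT-D1 B, 502 and 119 in NT-D3 A, 285 and 77.1 in NT-D3 B and 246 and 0 in RT-D3 B. Members were higher in 7 of 7 pools, although RT-D1 B and NT-D1 B lay under the highest Il10-negative pool. The means were 295 ± 171 and 42.1 ± 41.2 CPM (SD, n = 7), and the log2 fold change was 2.74 ± 0.35 (SE, edgeR adjusted p = 0.00583). A Lag3 UMI was found in 72.9% of members, 26.1% of Il10-negative and 16.6% of ST2-positive cells, and in 58.7%, 18.8% and 11.2% after thinning to 10000 UMIs.

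Tigit (ENSMUSG00000071552), an inhibitory receptor that competes with the activating receptor CD226 for the ligand CD155, stood at 863 ± 225 CPM in members and 409 ± 140 in Il10-negative cells. Members were higher in 7 of 7 pools, from 603 against 410 in NT-D1 B to 1265 against 710 in NT-D3 A (log2 fold change 1.09 ± 0.13, edgeR adjusted p = 0.00583). Cd226 (ENSMUSG00000034028) itself was lower in members in 7 of 7 pools without overlap. It stood at 25.2 against 45.9 CPM in NT-D1 A, 22.1 against 54.7 in NT-D1 B, 20.2 against 63.4 in RT-D1 A, 45 against 59.7 in RT-D1 B, 10.8 against 78.2 in NT-D3 A, 38.7 against 92.9 in NT-D3 B and 18.9 against 80.8 in RT-D3 B (log2 fold change -1.28 ± 0.25, edgeR adjusted p = 0.0398). The call of Cd226 was kept under 7 of 18 alternatives and in 1 of the 7 fits without 1 pool. Of the 10 inhibitory receptors listed, 8 could be tested. Lag3 and Tigit were higher and none was lower, with a median log2 fold change of 0.45 against 0.00 over all genes. Havcr2 (TIM-3) had 0.73 (adjusted p = 0.0931) and Pdcd1 (PD-1) 0.06.

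Ccl4 (ENSMUSG00000018930), an inflammatory chemokine gene, stood at 1317 ± 909 CPM in members and 147 ± 157 in Il10-negative cells without overlap. The pool values were 706 against 461 in NT-D1 A, 783 against 30.2 in NT-D1 B, 1325 against 100.2 in RT-D1 A, 3325 against 102 in RT-D1 B, 939 against 103 in NT-D3 A, 1058 against 233 in NT-D3 B and 1083 against 0 in RT-D3 B (log2 fold change 3.38 ± 0.50, edgeR adjusted p = 0.0154). Ccl3 had a log2 fold change of 2.78, which did not pass (adjusted p = 0.0931). Cxcr6 (ENSMUSG00000048521) stood at 277 ± 163 against 58.7 ± 35.1 CPM (2.14 ± 0.34, edgeR adjusted p = 0.0169) and was higher in 7 of 7 pools, from 77.5 against 14.4 in NT-D1 B to 516 against 48.5 in RT-D3 B. Of 26 genes for migration and adhesion, 21 were tested. Cxcr6 and Itgb8 were among those that were higher, none was lower, and the median was -0.04. Ccr4 had -1.31 (adjusted p = 0.0808) and S1pr1 -0.95.

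Among the molecules with which Treg cells act on other cells, Itgb8 was the one called of 18 tested of 19. Itgb8 (ENSMUSG00000025321) and Maf had been named as markers of these cells with earlier results of these data known, so their direction is no independent evidence. Itgb8 stood at 136 against 77.7 CPM in NT-D1 A, 252 against 43.2 in NT-D1 B, 232 against 149 in RT-D1 A, 175 against 76.6 in RT-D1 B, 348 against 194 in NT-D3 A, 236 against 98.8 in NT-D3 B and 296 against 88.9 in RT-D3 B. Members were higher in each pool (log2 fold change 1.23 ± 0.20, edgeR adjusted p = 0.0215). The ectoenzymes of the adenosine pathway, Entpd1 (CD39) with 0.66 (adjusted p = 0.0552) and Nt5e (CD73) with 0.87 (adjusted p = 0.0654), and granzyme B, Gzmb, with 0.78 ± 0.17 (adjusted p = 0.06), did not pass. Tgfb1 had -0.09, Ctla4 0.32 and Ebi3 0.17. The list's median was 0.36.

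Of 27 regulators known to act on Il10, 23 were tested and none was called (median 0.04). Maf (ENSMUSG00000055435) stood at 971 ± 187 against 639 ± 289 CPM, higher in 6 of 7 pools (0.69 ± 0.15, edgeR adjusted p = 0.0727). Prdm1 (BLIMP-1) had 0.37 and Nfil3 0.58. Bhlhe40, a factor known to repress Il10, had -0.69 (adjusted p = 0.139) and was lower in 7 of 7 pools. Eomes, a factor of type 1 regulatory cells, had 0 UMIs in members. Of 9 genes for the IL-10 receptor and its STAT3 pathway, 9 were tested and none was called (median -0.15).

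**Figure D3:**
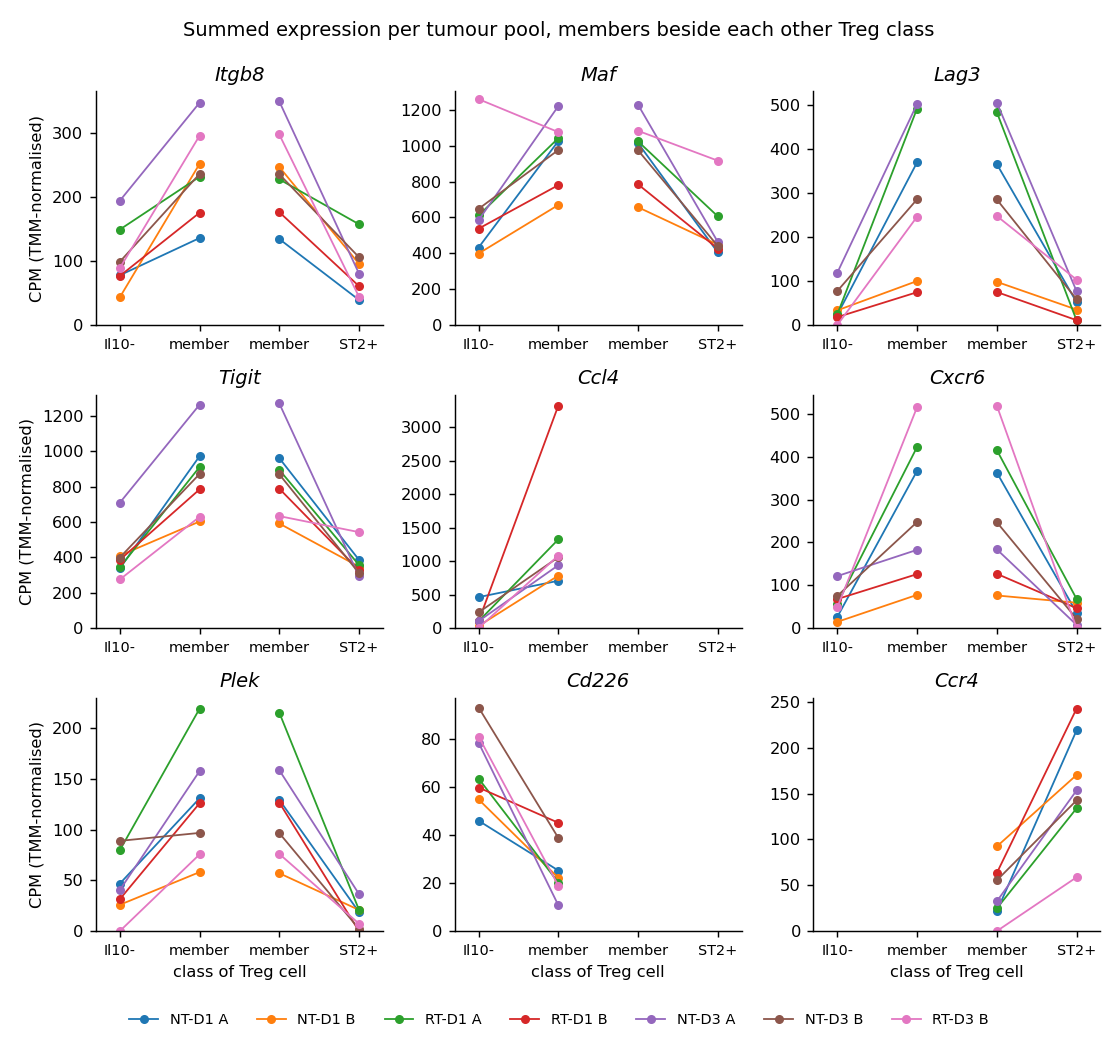
Summed expression per tumour pool (y axis, TMM-scaled CPM from 0) of 9 genes, 1 panel each, in Il10-negative cells, members and ST2-positive cells (x axis), with lines joining the classes of a pool and the members drawn once for each fit. Ccl4 and Cd226 are drawn for the first fit and Ccr4 for the second. Lag3, Tigit, Cxcr6, Plek and Itgb8 are higher in members in every pool, and Cd226 and Ccr4 are lower.

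Further genes higher in members were Plek (pleckstrin, 124 ± 54.3 against 44.8 ± 30.9 CPM, log2 fold change 1.42), Cep112 (1.65), Airn (1.54), Tmem163 (1.39, no overlap) and Sv2c (1.24). Their edgeR adjusted p ran from 0.0154 to 0.0344. Airn is antisense to Igf2r, and reads of such a pair can be hard to assign. Genes lower in members included Ly6c2 (-3.45), Ifit3b (-2.31), Tespa1 (-1.70), Rundc3b (-1.67, no overlap), Lta (lymphotoxin alpha, 24.6 ± 18.8 against 84.5 ± 51.1 CPM, -1.66), St6gal1 (-1.61), Castor1 (-1.60), Plac8 (-1.47) and Vav3 (-1.29). Ly6c2 and Ifit3b have near-identical neighbours, so their counts are uncertain. Cd69, an early activation gene that also retains cells in tissue, was lower in 7 of 7 pools, with means of 306 ± 93.1 and 475 ± 108 CPM (-0.64 ± 0.12, edgeR adjusted p = 0.0398). The call of Cd69 was kept under 7 of 18 alternatives and in 2 of the 7 fits without 1 pool.

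Several lists leaned to 1 side with few or no genes called. Of 13 early TCR response genes tested, 11 had negative fold changes (median -0.55), and 1, Cd69, was called. Of 27 interferon-stimulated genes, 22 were negative (median -0.37), with 0 called. Of 23 cell cycle genes 21 were positive (median 0.38), and of 16 glycolysis genes 15 were negative (median -0.25), again with 0 called in each. Of 15 naive and central genes 1 was lower, Cd69, with a median of -0.56. Of 12 Treg lineage genes 0 were called (median -0.07). The list medians are descriptions beside the median of 0.00 over all genes.

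**Figure D4:**
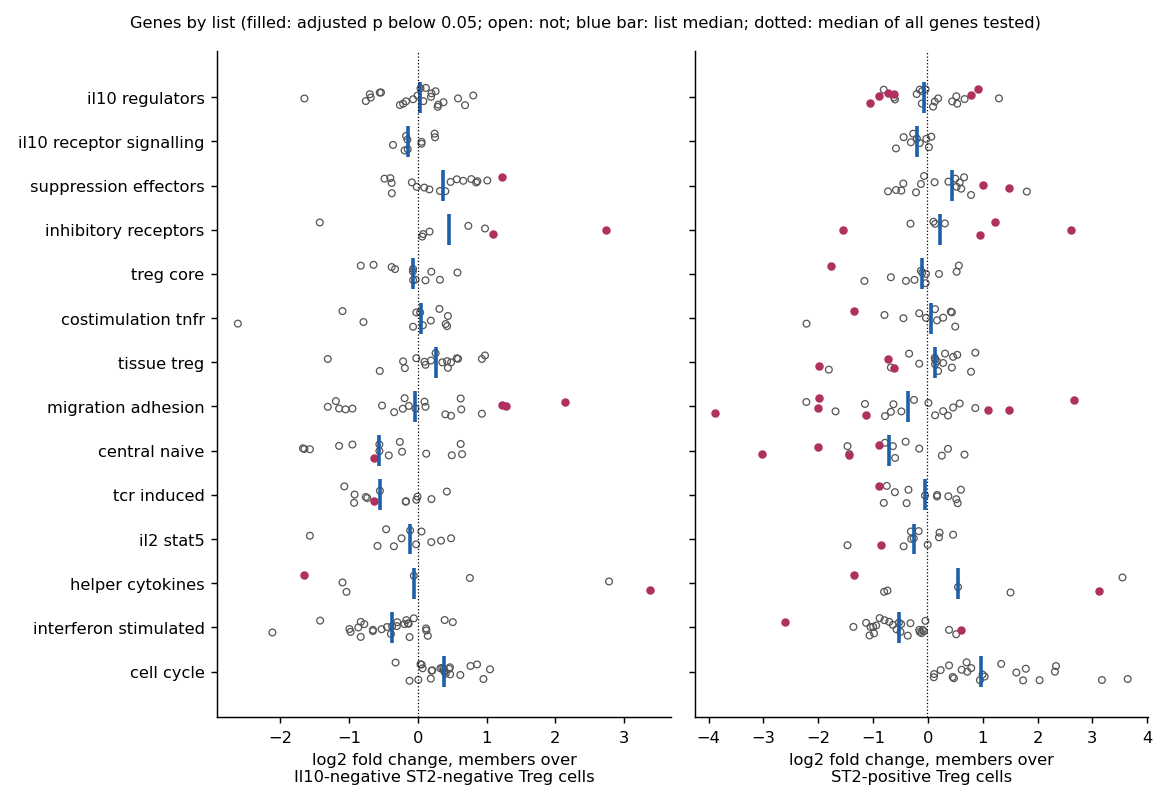
Log2 fold change of each tested gene (points, x axis) by gene list (y axis), with members over Il10-negative cells on the left and over ST2-positive cells on the right. Filled points passed an adjusted p of 0.05, blue bars are list medians and the dotted line is the median of all genes. Naive and central genes have medians of -0.56 and -0.71, and inhibitory receptors of 0.45 and 0.22.

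The members and the Il10-negative cells differed in colour, with 75 red and 69 green against 161 red and 61 green cells. With pool and colour together as the block, 40 genes were called, 21 of them shared with the 37. A block was the cells of 1 colour of a pool, with at least 5 cells in each class. NT-D1 A, RT-D1 A and NT-D3 B entered once for each colour, and other pools with 1 colour. RT-D3 B did not enter, as its members were 4 red and 2 green. The p-values of this fit take the colours of a pool as independent. Its cells differ from those of the first fit, so the part of colour was not tested. Lag3 (2.12, edgeR adjusted p = 0.00427), Tigit (1.09, edgeR adjusted p = 0.000762) and Cxcr6 (1.96, edgeR adjusted p = 0.0308) were still called. Ccl4 (2.24, adjusted p = 0.0754), Itgb8 (0.94, adjusted p = 0.104), Cd226 (-1.24, adjusted p = 0.201), Cd69 (-0.51, adjusted p = 0.231) and Plek (0.72, adjusted p = 0.456) were not. Nor were Ly6c2 (adjusted p = 0.234), Airn (adjusted p = 0.0611), Castor1 and Vav3 (both 0.0754) and Rundc3b (adjusted p = 0.074). Without RT-D1 pool A 2 genes were called, Lag3 (2.49) and Tigit (1.05, both with an edgeR adjusted p of 0.0321), and with the HTODemux hashtag call 0 were.

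The third comparison set the members against ST2-positive Treg cells. Members had more Plek, Cxcr6, Lag3, Tigit, Entpd1, Havcr2 and Maf, and less Ccr4, S1pr1, Nrp1, Klf2, Rora and Gata3. Over 7 pools (261 cells, 137522 to 754210 UMIs a sum), 182 of 7620 genes were called by edgeR (2.39%), 77 of them higher (1.01%) and 105 lower (1.38%) in members. The ST2-positive class may hold Il10, and 23 of its 151 cells did. Its cells were 114 red and 37 green.

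Plek (ENSMUSG00000020120) separated the classes without overlap. In members and ST2-positive cells its CPM were 129 and 18.8 in NT-D1 A, 57.04 and 20.9 in NT-D1 B, 215 and 21.0 in RT-D1 A, 127 and 0 in RT-D1 B, 159 and 36.5 in NT-D3 A, 96.6 and 2.16 in NT-D3 B and 76.1 and 7.34 in RT-D3 B. The log2 fold change was 3.07 ± 0.39 (edgeR adjusted p = 0.00141). Cxcr6 stood at 276 ± 162 against 34.1 ± 25.8 CPM without overlap (2.66 ± 0.41, edgeR adjusted p = 0.00359), and Lag3 at 294 ± 170 against 49.3 ± 33.9 (2.61 ± 0.32, edgeR adjusted p = 0.00141). Tigit stood at 860 ± 227 against 367 ± 83.7 CPM without overlap (1.23 ± 0.18, edgeR adjusted p = 0.00213). Of 8 inhibitory receptors tested, Lag3, Havcr2 (0.94 ± 0.21) and Tigit were higher and Btla (-1.56) was lower.

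Ccr4 (ENSMUSG00000047898), a chemokine receptor of skin-homing and T helper 2 cells, lay on the other side. Its CPM in members and ST2-positive cells were 21.6 and 219 in NT-D1 A, 92.3 and 170.3 in NT-D1 B, 24.8 and 134 in RT-D1 A, 63.4 and 243 in RT-D1 B, 32.5 and 153 in NT-D3 A, 55.4 and 143 in NT-D3 B and 0 and 58.7 in RT-D3 B (log2 fold change -1.99 ± 0.28, edgeR adjusted p = 0.00177). Nrp1, a semaphorin and VEGF co-receptor found on thymic Treg cells, stood at 61.5 ± 50.9 against 205 ± 64.0 CPM without overlap (-1.76 ± 0.37, edgeR adjusted p = 0.021). S1pr1 stood at 46.6 ± 57.9 against 158 ± 36.1 CPM (-1.999 ± 0.36, edgeR adjusted p = 0.00745), and Klf2, the factor that drives S1pr1, at 152 ± 91.8 against 453 ± 238 (-1.43 ± 0.31, edgeR adjusted p = 0.0246). The call of Klf2 was kept under 9 of 15 alternatives and in 3 of the 7 fits without 1 pool. Of 22 migration and adhesion genes, those higher included Cxcr6 and Itgb8 and those lower were S1pr1, Itgb1, Ccr4 and Gpr15 (-3.88). Of 14 naive and central genes, 4 were lower (S1pr1, Cd69, Klf2 and Ly6c1) and 0 higher, with a median of -0.71.

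Of 22 regulators of Il10 tested, Rbpj, the DNA-binding factor of Notch signalling (381 ± 76.2 against 220 ± 59.0 CPM, 0.79 ± 0.15), and Maf (968 ± 190 against 530 ± 183 CPM, 0.91 ± 0.15, edgeR adjusted p = 0.00453) were higher. Stat4 (-1.06), Gata3, Junb and Rora were lower. Gata3, which drives ST2 in Treg cells and T helper 2 cells, stood at 116 ± 28.6 against 176 ± 34.9 CPM (-0.62 ± 0.15, edgeR adjusted p = 0.0482). The call of Gata3 was kept under 4 of 15 alternatives and in 1 of the 7 fits without 1 pool. Rora stood at 366 ± 49.9 against 604 ± 57.9 without overlap (-0.73 ± 0.13, edgeR adjusted p = 0.00724). Of 18 suppression genes, Itgb8 (1.48 ± 0.20) and Entpd1 (300.0 ± 109 against 152 ± 60.7 CPM, 1.00 ± 0.16, edgeR adjusted p = 0.00361) were higher and none was lower. Gzmb (0.66, adjusted p = 0.192), Ctla4 (0.52, adjusted p = 0.0832), Prdm1 (0.67, adjusted p = 0.139) and Tgfb1 (0.12) did not pass.

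Other genes higher in members were Etv5 (3.35), Ccl3 (3.13 ± 0.76, edgeR adjusted p = 0.0449), Emp1 (2.66), Serpina3f (2.64), Perp (2.53), Ptpn5 (2.47), Kif20b (2.16) and Tmem163 (2.11). Ccl4 had the larger log2 fold change of 3.55 and did not pass (adjusted p = 0.0617). Other genes lower in members were Clec2i (-2.85), Ifit3 (41.0 ± 40.5 against 302 ± 351 CPM, -2.61), Nebl (-2.34), Cxcl10 (-2.30), Ccr3, the eotaxin receptor (-2.29), Plcb4 (-2.29), Ms4a4c (-2.28), Tnfrsf25 (-2.28) and Emb (-2.09). The immediate early genes Zfp36 (-1.31 ± 0.17, no overlap, edgeR adjusted p = 0.00141), Ier2 (-0.98) and Junb (-0.89) were lower, and 3 of 15 tested genes of the list of heat shock and dissociation genes were called. Of the 22 cell cycle genes tested, 22 were positive (median 0.97) and 0 were called. Of 27 interferon genes, 24 were negative (median -0.53), with Ifit3 lower and Ly6a (0.60) higher. The CD8 marker Nkg7 was higher (1.17 ± 0.27, edgeR adjusted p = 0.0326) and the myeloid marker Itgam lower (-2.07). In the fit with pool and colour as the block, NT-D1 A and RT-D1 A entered once for each colour and RT-D3 B did not enter. Its p-values carry the limits given for the first comparison of classes. In that fit 114 genes were called, 88 of them among the 182, and S1pr1 (adjusted p = 0.0592), Klf2 (adjusted p = 0.0513), Rbpj (adjusted p = 0.0803) and Gata3 (adjusted p = 0.248) were not. Nor were Ccl3 (adjusted p = 0.305), Nkg7 (adjusted p = 0.327), Perp (adjusted p = 0.19) and Itgam (adjusted p = 0.181), nor Kif20b, Btla, Ptpn5, Emp1, Ms4a4c, Stat4 and Tnfrsf25 (adjusted p from 0.0513 to 0.0858). Etv5, Clec2i and Gpr15 were not tested in that fit. Etv5 kept its call in 2 of the 7 alternatives that tested it.

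Red and green members were compared in the 3 pools with at least 5 members of each colour (NT-D1 A, NT-D3 B and RT-D1 A, 75 cells). By edgeR 0 of 5203 genes were called (0.0%), with 455 at an unadjusted p under 0.05 and 5 called by DESeq2. Maf stood at 786 ± 164 CPM in red and 1192 ± 115 in green members (log2 fold change -0.60 ± 0.20, edgeR adjusted p = 0.491). Itgb8 stood at 157 ± 102 against 226 ± 43.0 (-0.66, edgeR adjusted p = 0.647). Lag3, named here after its values were seen, stood at 123 ± 105 in red and 561 ± 175 in green members (-2.25 ± 0.52, edgeR adjusted p = 0.423). Il10 was higher in green members in 2 of the 3 pools. It was 871 CPM in green and 219 in red members of NT-D1 A, 880 and 262 in RT-D1 A, and 310.1 and 786 in NT-D3 B. In each of these 3 pools the higher value was that of the replicate 2 well, so colour and well cannot be told apart. CD8 markers summed to 1088 to 1954 CPM in green and 214 to 1253 in red members, and their part was not tested. The green cells lay in the replicate 2 wells in pool A and in the replicate 1 wells in pool B, and without NT-D3 pool B 121 genes were called.

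Radiation was tested within the members over 9 pools with at least 5 members, 4 irradiated and 5 not, with day and FTY720 state as a term (137 cells, 57768 to 754210 UMIs a sum). RT-D3 and NT-D3 lay in different wells, so radiation and well cannot be told apart between them. By edgeR 0 of 6907 genes passed (0.0%), with 287 at an unadjusted p under 0.05, 11 called by DESeq2 and a smallest adjusted p of 0.137. One of the genes at that smallest value was Gzmb (ENSMUSG00000015437), the protease of cytotoxic granules. Its CPM were 3514 in RT-D1 A, 2995 in RT-D1 B, 10951 in RT-D3 B and 3758 in RTFTY720-D3 B. In the unirradiated pools they were 2070 in NT-D1 A, 1677 in NT-D1 B, 2092 in NT-D3 A, 2042 in NT-D3 B and 1886 in FTY720-D3 A. The groups did not overlap, and the log2 fold change was 1.37 ± 0.25 (edgeR adjusted p = 0.137).

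The list medians for radiation lay apart by function, with no single gene called. Of 16 p53 targets tested of 23, 16 had positive fold changes (median 0.64). Cdkn1a (p21), named after its values were seen, stood at 160 ± 91.6 CPM in irradiated and 45.9 ± 26.6 in unirradiated pools without overlap (1.74 ± 0.48, edgeR adjusted p = 0.712). Of 26 interferon-stimulated genes, 26 were positive (median 0.93). Of 22 cell cycle genes, 20 were negative (median -0.58). The Il10 regulators had a median of 0.03, with 11 positive and 11 negative, and the suppression genes 0.01, beside -0.02 over all genes. Maf had 0.23, Itgb8 0.09, Tigit -0.33 and Lag3 0.10.

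**Figure D5:**
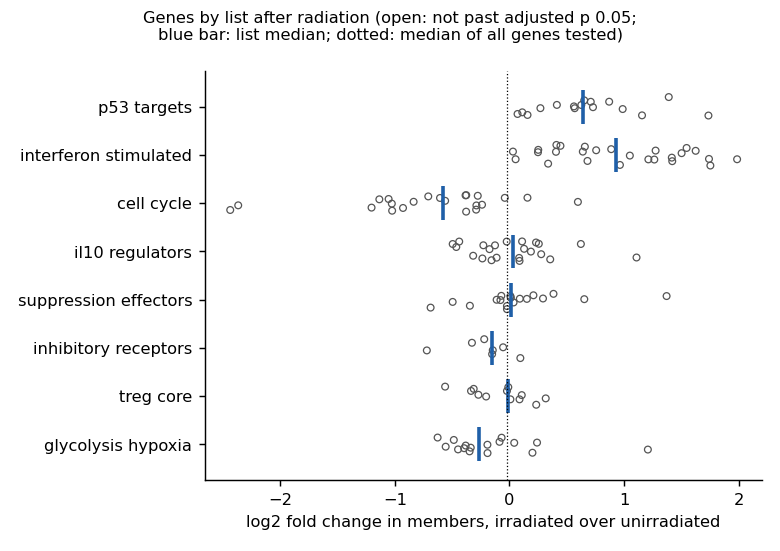
Log2 fold change of irradiated over unirradiated members (x axis) for each tested gene (open points, none called) of 8 gene lists (y axis), with blue bars for list medians and a dotted line for the median of all genes. All 16 p53 targets and all 26 interferon-stimulated genes lie right of 0, and the 22 Il10 regulators lie on both sides.

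Day 3 was set against day 1 in unirradiated members (2 pools each, 81 cells). By edgeR 0 of 6730 genes were called (0.0%), with 170 at an unadjusted p under 0.05 and 2 called by DESeq2. Log2 fold changes were 0.36 for Maf, 0.59 for Itgb8, 0.72 for Entpd1 and 0.14 for Gzmb (all with an edgeR adjusted p of 0.999). Of 22 interferon genes 18 were positive (median 0.65). Leaving out 1 pool leaves a lone pool on 1 side, assumed to vary like the others, and then 318 genes were called without NT-D1 pool A, 40 without NT-D3 pool B and 19 without NT-D1 pool B.

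Whether the difference between members and Il10-negative cells itself depended on colour or radiation was tested with interaction terms. For colour (3 pools, 163 cells) 0 of 6226 genes were called by edgeR (0.0%, 418 at an unadjusted p under 0.05, 2 by DESeq2). For radiation (7 pools, 332 cells) 0 of 7872 were called (0.0%, 223 unadjusted, 0 by DESeq2).

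TCR beta sequences showed mostly distinct cells with a few small clones. Of the 144 members, 128 had 1 productive TCR beta chain, with 121 distinct sequences when counted by pool. Sequences held by several members of a pool numbered 7, and 14 members carried them. The chance that 2 cells of a pool shared a sequence was 0.484 ± 0.634% in members and 0.157 ± 0.219% in Il10-negative cells (n = 7 pools, exact two-sided sign-flip permutation p = 0.375, smallest possible 0.0156). Sequences of 14 members were also found in Il10-negative cells of the same pool and those of 3 members in ST2-positive cells. For Foxp3-negative CD4 cells and for CD8 cells the count was 0. The V gene most often used was the pair that the contig table names TRBV12-2+TRBV13-2 (21 cells), followed by TRBV2 (15), TRBV1 (15) and TRBV3 (11).

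The CDR3 sequences below show how clones spanned wells and classes, with colours as named in the matrices. Those of C2, C3, C5 and C6 were named after their values were seen, and the rest because they occurred in members and another class. Capitals mark the junction, from the first mismatch to the V gene, read from the left, to the first mismatch to the J gene, read from the right. Each base is compared with the one held by at least 70% of the distinct sequences with that gene. A position without such a base counts as a mismatch:
C1, TRBV1 and TRBJ2-7, NT-D3 pool B, 2 green members with 1 and 3 Il10 UMIs and 1 Il10-negative cell: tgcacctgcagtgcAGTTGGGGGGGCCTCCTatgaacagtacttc
C2, TRBV1 and TRBJ2-5, NT-D1 pool A, 1 red and 1 green member with 11 and 18 Il10 UMIs: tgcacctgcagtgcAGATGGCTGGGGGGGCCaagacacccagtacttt
C3, TRBV2 and TRBJ2-7, NT-D3 pool A, 1 red and 1 green member with 2 and 17 Il10 UMIs: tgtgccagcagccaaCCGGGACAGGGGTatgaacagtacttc
C5, TRBV3 and TRBJ2-3, NT-D3 pool B, 1 red and 1 green member with 4 and 22 Il10 UMIs: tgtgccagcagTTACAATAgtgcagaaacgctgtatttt
C6, TRBV15 and TRBJ2-7, NT-D3 pool B, 1 red and 1 green member with 2 and 16 Il10 UMIs: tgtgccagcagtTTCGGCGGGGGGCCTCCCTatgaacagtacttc
C8, TRBV2 and TRBJ1-1, RT-D1 pool B, 1 member and 2 Il10-negative cells, all red: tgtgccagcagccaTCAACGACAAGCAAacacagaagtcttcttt
C9, TRBV13-1 and TRBJ2-3, NT-D1 pool B, 1 member with 50 Il10 UMIs and 2 Il10-negative cells, all red: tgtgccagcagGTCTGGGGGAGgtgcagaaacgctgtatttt
C10, TRBV13-3 and TRBJ2-7, RT-D1 pool B, 1 member, 1 Il10-negative and 1 ST2-positive cell, all red: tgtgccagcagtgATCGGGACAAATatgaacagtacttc
Of the 7 sequences held by several members, 4 lay in both wells of the condition under 1 tag (C2, C3, C5 and C6). The matrices name their cells red in 1 well and green in the other, while the tag numbers of the labels would give each of these clones 1 colour. Il10 counts differed widely within a clone, as between the 4 and 22 UMIs of C5 and between the 50 and 0 UMIs of C9. The sequence of C3 was also found in NT-D3 pool B in 1 member and 1 Il10-negative cell. In all, 5 members had a sequence found in another pool, so a shared beta sequence does not by itself show shared descent.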

How the data were processed

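RNA, hashtags and TCRs of sorted tumour T cells were measured in 4 wells with GEM-X 5' v3 chemistry, per the labels' protocols. The authors deposited matrices of raw UMI counts by gene and cell from Cell Ranger 8.0.1 on mm39, per the submitters' processing notes, and the deposited contig tables give counts of reads and UMIs. The cell filter left out 76 of 2816 barcodes. A cell took its top hashtag where that had at least 20 UMIs and 3 times the next, and 0 cells failed. HTODemux (Seurat 5.3.0) did not call 597 barcodes singlets, 30 of them members, and was an alternative. No doublet caller was run, and 3.28% of cells had several TCR beta chains.

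Counts were summed per tumour pool and class (at least 5 cells) and tested with edgeR 4.0.16 (filterByExpr, TMM, glmQLFit, glmQLFTest, Benjamini-Hochberg at 0.05) in R 4.3.3, with DESeq2 1.42.0 as an alternative. CPM are TMM-scaled. The 5 gate genes were left out of tests. Scripts were tested on simulated data. Shares used exact permutation tests (scipy 1.17.1). Pools were taken from tag sequences after TCR sequences were seen and before any expression test. Members and lists were chosen with earlier results of these data known. Named were the 4 markers, the 10 largest called changes in each direction that had 1 direction in every pool, up to 5 called genes of each list, and Il10 regulators and suppression genes. Apart from cell type markers, other genes fall outside these rules, and not all are marked so where they appear. Among them are Ccr4, S1pr1, Havcr2, Pdcd1 and Ccl3 against Il10-negative cells and Ccl4 against ST2-positive cells. They are to be read as named after their values were seen. The reference tables used another build than mm39, so coordinates are not given. A few genes and 1 sequence are not reported here.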

Additional observations from a re-analysis of the deposited data

How the results depend on the processing

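No called gene named above for either comparison of classes changed direction under any alternative run. Of the 22 genes called and named against Il10-negative cells, 245 of 396 checks kept the call, and of the 47 against ST2-positive cells 549 of 690. Against Il10-negative cells, 37 calls became 67 with DESeq2, 215 without the filter on low counts, 0 with HTODemux, 62 with at least 2 Il10 UMIs for a member, 22 with classes thinned to 5000 UMIs, 92 with Il1rl1 not used, 69 with pools by replicate number and 2 to 44 without 1 pool (2 without RT-D1 A, 7 without NT-D3 A). Against ST2-positive cells, 182 became 486 without the filter, 114 with pool and colour as the block and 86 (without NT-D3 B) to 198 without 1 pool. The cause was not tested. Counts of 0 became, for red against green, 5 with DESeq2, 112 without the filter, 105 with pools by replicate number (76 higher in red, 29 lower, exchanged under the label colours, also 105), 17 without pairing and 0 to 121 without 1 pool. They became, for radiation, 11 with DESeq2, 52 without the filter and 0 to 2 without 1 pool. They became, for day, 2 with DESeq2, 62 without the filter, 16 with HTODemux and 0 to 318 without 1 pool. For the interaction with colour they became 2 with DESeq2, 57 without the filter and 0 to 14 without 1 pool, and for that with radiation 30 without the filter. The red minus green share was -17.8 points (thinned to 10000), -6.52 (5000), -18.3 (HTODemux), -16.1 (at least 10 Treg cells), -20.0 (replicate 1 wells only), 2.41 (label colours, pools by replicate number), -22.4 (matrix colours, pools by replicate number) and -15.6 to -10.4 without 1 pool. The radiation share reversed to 5.42, 4.68, 2.57 and 2.23 under the first 4 of these and ran from -9.09 to 3.24 without 1 pool. The FTY720 share ran from 8.56 to 27.0 without 1 pool, and the TCR sharing difference from 0.129 to 0.460. The replicate numbers of the labels pair no pools as defined by tag. With pools by replicate number and the replicate block, radiation gave 1 call and day 0. Red against green with at least 10 members a sum could not be fitted. Pool sums of 5 to 57 cells limit the depth.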
